A study of Vitis vinifera with 11 samples.

Results

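The step between node 2 and node 3 of the grapevine (Vitis vinifera) shoot was described in young inflorescences, counting nodes downward from the shoot tip. Its members were the 4 inflorescence libraries of positions 3 and 2, out of 11 messenger RNA libraries in all. The position 3 group held 1 library from the picovine line 06C021V0046 and 1 from the picovine line 06C008V0003, and the position 2 group held 1 library from each of the same lines. Picovines are dwarf grapevines, so every inflorescence here, at position 2 as at position 3, came from a dwarf plant. The 2 replicates of a position were therefore different genotypes, each line gave 1 library per position, and the number of plants behind a library was not given in the sources used here. Plants had grown with 16 h days at 25 °C and 8 h nights at 20 °C. Libraries used beside these 4 were the same lines' inflorescences of position 1, tendrils of positions 1, 2 and 3 from the control vine Pinot Meunier L2 (1 library each), and pooled leaves of 06C021V0046 and of Pinot Meunier L2. One picovine line is spelled with a different prefix in the protocols, and its name here is that of the sample labels.

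A shoot tip makes organs in sequence, so an inflorescence farther from the tip is older than the one above it, and neighbouring nodes give successive stages of 1 developing organ. In grapevine the inflorescence and the tendril arise from the same kind of lateral primordium, and an inflorescence branches before its floral meristems form sepals, petals, stamens and carpels. MADS-box transcription factors give these floral organs their identity, as described best in Arabidopsis, while sugar transporters, aquaporins, hormone enzymes and wall enzymes serve the growth and filling of the organ. The 2 positions were compared within each line. Calls came from the fit over both lines, and whether both lines moved the same way was looked at beside them.

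Depth was 14.34 and 14.13 M reads on genes (M, 1e6) at position 3, against 11.36 and 13.0 M at position 2 (06C021V0046 first, here and in all pairs of values below). Between 17683 and 17930 genes had an RPKM (reads per kilobase of gene length for every 1e6 mapped reads) of at least 1 at position 3, against 17928 and 17949 at position 2. The 10 highest genes took 4.96% and 3.92% of the library total over genes at position 3, against 3.69% and 3.09% at position 2. The labelled organ was checked with 5 floral genes, MADS9, TM6, AP3, AG and MADS2. They ranged from 61.1 to 950.5 RPKM in the 4 libraries, while none of them passed 3.85 RPKM in the leaf pools. In bulk tissue, fewer cells of a type and less RNA per cell cannot be told apart, so each level below is an average over the whole organ.

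The step to position 3 was broad, and more genes fell than rose. Of 18839 genes tested with limma on log2(RPKM + 1), 7822 were called at an adjusted p under 0.05 (41.5%), 2947 higher at position 3 (15.6%) and 4875 lower (25.9%). All 7822 moved the same way in both lines. This says little about agreement, because disagreement between the lines enters the error of the test. At least 2-fold differences in both lines were found in 725 genes that were higher at position 3 (3.85%) and in 1247 that were lower (6.62%), while 4 genes moved by that much in opposite directions. The step of 1 line correlated with that of the other at 0.855 (Pearson, across genes, which do not count as independent replicates). Called and at least 2-fold on average were 1025 genes upward (5.44%) and 1832 downward (9.72%). Both position 3 libraries lay above both position 2 libraries in 4514 genes (24.0%) and below them in 6885 (36.5%), the shares against which single genes without overlap are to be read. The balance of directions depended on the scaling. Of the calls, 37.7% were higher at position 3 with the deposited values, and this share became 45.0% with quantile normalization and 53.8% when libraries were scaled by median ratios. The median of all genes lay at -0.13 with the deposited values, at -0.04 with quantile normalization and at 0.03 with median ratios, so single differences below stand relative to it.

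Of the 309 genes with a name, 274 were tested, and 59 of these were higher at position 3 (21.5%), 57 were lower (20.8%) and 158 were not called. Each difference is given on a log2(RPKM + 1) scale, where low genes appear to change less than they do, with its SE from the fit over the 6 inflorescence libraries. The largest rises lay farther from 0 than the largest falls. Counts in the gene lists below stand beside 15.6% of all tested genes called higher and 25.9% called lower.

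**Figure D1:**
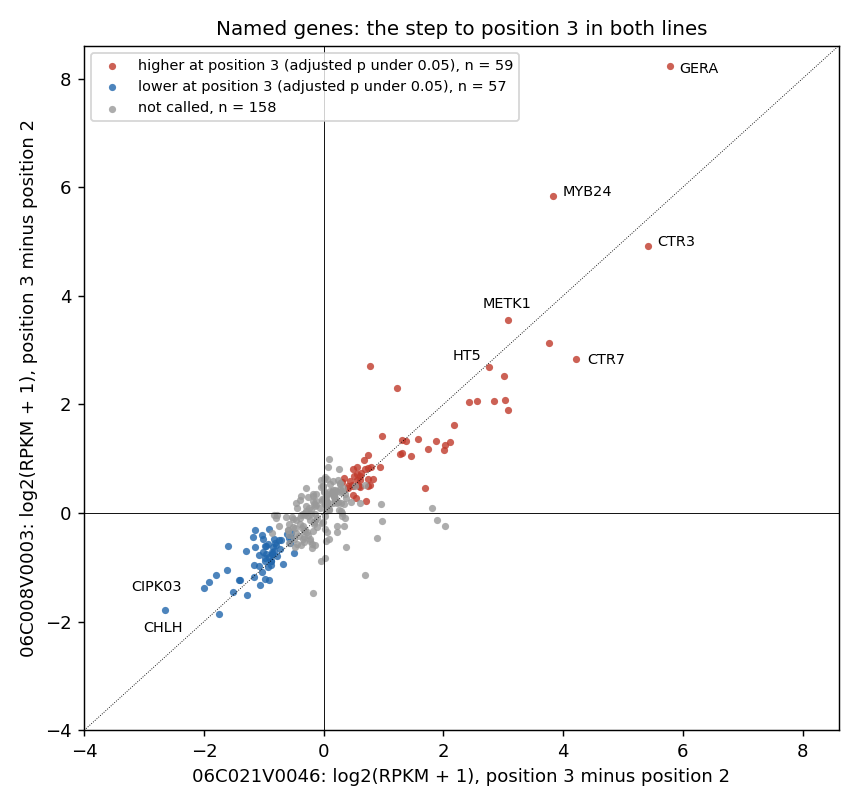
Difference between position 3 and position 2 on the log2(RPKM + 1) scale for the 274 tested named genes, 1 point per gene, in 06C021V0046 (x axis) and 06C008V0003 (y axis). Red points were higher at position 3 (59), blue points lower (57) and grey points not called (158), and the dotted line marks equal steps in both lines. GERA, MYB24, CTR3, METK1, CTR7 and HT5 lie far up in both lines, and CHLH and CIPK03 far down.

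Floral MADS-box genes were already expressed at position 2, and most had no called step to position 3. Of the 11 MADS-box genes tested, 2 were higher at position 3, none was lower and 9 were not called. The 2 rises are near the share of 15.6% over all genes, of which 25.9% were lower. The list had a median difference of 0.24, against -0.13 over all genes. After quantile normalization the list's median was -0.07 and 3 genes were higher. AG, the AGAMOUS gene of stamen and carpel identity, had 307 and 380.1 RPKM at position 3, against 183 and 213 RPKM at position 2. Both position 3 libraries lay above both position 2 libraries, and the step was similar in the lines (0.79 ± 0.14, adjusted p = 0.00252). MADS1, of the same clade, had 130.3 and 167 RPKM at position 3, against 92.0 and 94.2 at position 2 (0.66 ± 0.14, adjusted p = 0.00637), again with no overlap. The calls of both genes ended without the genotype term (adjusted p = 0.0672 for AG and 0.0889 for MADS1) and without the position 2 library of 06C021V0046 (0.0633 and 0.055), and that of MADS1 also without the position 2 library of 06C008V0003 (0.121).

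The B-class genes of petal and stamen identity showed no called step. MADS9 had 699 and 950.5 RPKM at position 3, against 635 and 723 at position 2 (adjusted p = 0.18). TM6 had 219.6 and 380.3 RPKM at position 3, against 221 and 271 at position 2 (adjusted p = 0.347), and AP3 61.1 and 108 RPKM, against 72.6 and 102 (adjusted p = 0.727). For TM6 and AP3 the lines differed in sign, since 06C021V0046 was lower at position 3 and 06C008V0003 higher. AP1, the APETALA1 gene that tendrils also express, had 145 and 169 RPKM at position 3, against 118 and 127 at position 2, which missed the threshold (0.36 ± 0.13, adjusted p = 0.0552) but passed it after median-ratio scaling (adjusted p = 0.0124). MADS2 and MADS3, related to SEPALLATA genes, had 186 and 235 RPKM, and 57.1 and 103 RPKM, at position 3, against 180.3 and 199 RPKM, and 99.8 and 109.8 RPKM, at position 2. The other members, MADS5, MADS8 and VFUL-L, ranged from 6.89 to 33.3 RPKM at position 3 and from 6.71 to 32.2 RPKM at position 2. Without the position 3 library of 06C021V0046, TM6 (adjusted p = 0.0422) and MADS5 (0.025) passed the threshold upward, and MADS5 did so after quantile normalization (0.0277). MADS3 passed it downward without the position 3 library of 06C008V0003 (0.00614) and without either position 1 library (0.0438 and 0.0419).

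Among 3 flowering regulators tested, 1 was higher and 1 lower. FT, which encodes the mobile flowering signal in Arabidopsis, had 114 and 73.2 RPKM at position 3, against 74.6 and 45.2 at position 2 (0.64 ± 0.14, adjusted p = 0.00606). The groups overlapped for FT, because 06C021V0046 was higher than 06C008V0003 at both positions, and its call ended without the genotype term (0.307), without the position 2 library of 06C021V0046 (0.0878) and without that of 06C008V0003 (0.0815). AP2, whose Arabidopsis counterpart specifies sepals and petals, fell to 11.3 and 12.7 RPKM at position 3, against 25.1 and 26.0 RPKM at position 2 (-1.04 ± 0.16, adjusted p = 0.00172). The levels of AP2 were nearly the same in both lines at either position, and its call stood in every setting tried. FCA, of the autonomous flowering pathway in Arabidopsis, had 10.22 and 11.9 RPKM at position 3, against 13.1 and 16.6 at position 2 (adjusted p = 0.0864). The flowering repressor TFL1A was at or under 0.0918 RPKM in the 4 libraries and the related MFT at or under 0.126, both under the expression filter, so neither was tested.

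A few genes were clearly expressed at position 3 and had almost no reads at position 2. Of all genes, 22 had fewer than 3 reads over both position 2 libraries and at least 5 RPKM in both position 3 libraries, and no gene showed the reverse. The named ones among them were GERA and MYB24. MYB24, an R2R3-MYB factor whose Arabidopsis counterpart acts in stamen development, had 13.3 and 56.3 RPKM at position 3 and no read at position 2. It was at least 255.5-fold higher at position 3, against a floor of 3 reads over both position 2 libraries, with a fitted difference of 4.84 ± 0.45 (adjusted p = 0.000305). MYB24 had no read in any tendril or leaf library either. GERA, the 1 riser beside 1 faller in the 6 tested terpene and aroma genes, had 56.9 and 314 RPKM at position 3 from 1393 and 7570 reads, against 0.0515 and 0.0450 RPKM at position 2 from 1 read each. Both genes were higher in 06C008V0003 than in 06C021V0046 at position 3, unlike the other 10 of the 12 largest named rises. The fitted difference of GERA was 7.01 ± 0.53 (adjusted p = 0.000122), and the pooled reads gave a ratio of 3834 with a 95% counting interval of 1061 to 31666.

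Copper transporters of the CTR family, which carry copper into the cell or out of the vacuole, moved together at this step. Of 6 tested members, 5 were higher at position 3 and none was lower, with a median difference of 1.27, against -0.13 over all genes. CTR3 had 86.4 and 29.2 RPKM at position 3, against 1.05 and 0 RPKM at position 2, where 5 reads were counted in all. Its fitted difference was 5.17 ± 0.29 (adjusted p = 3.64e-05), and the pooled reads gave a ratio of 119 (95% counting interval 50.8 to 368). CTR7 had 106 and 16.6 RPKM at position 3, against 4.71 and 1.47 at position 2 (3.53 ± 0.37, adjusted p = 0.000398). CTR8 had 272 and 54.4 RPKM at position 3, against 109 and 20.7 at position 2 (1.33 ± 0.19, adjusted p = 0.00109). The levels of CTR7 and CTR8 were several times higher in 06C021V0046 than in 06C008V0003 at position 3, and for CTR8 the groups overlapped although both lines rose by a similar amount. Without the genotype term the calls of CTR7 (0.0576) and CTR8 (0.426) ended. CTR2 and CTR1 also rose, and CTR6 was the 1 member not called. Without the genotype term CTR2 reached 0.196 and CTR1 0.746, and CTR1 lost its call when any 1 of the 4 libraries was left out (0.0745 to 0.279), without the filter (0.0826) and with a pseudocount of 0.1 (0.0524).

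S-adenosylmethionine synthases make the methyl donor of most methylation reactions, and 4 of 5 tested genes were higher at position 3 (median 0.64). METK1 had 33.6 and 13.7 RPKM at position 3, against 3.12 and 0.254 at position 2 (3.31 ± 0.29, adjusted p = 0.000255). METK3 had 103 and 38.1 RPKM at position 3, against 11.3 and 9.45 at position 2 (2.49 ± 0.26, adjusted p = 0.000395). Neither gene overlapped between the positions, whereas the abundant METK2 had 324 and 243 RPKM at position 3, against 279 and 213.5 at position 2, with no call (adjusted p = 0.239). METK4 had 211 and 208 RPKM at position 3, against 142 and 127 at position 2 (0.64 ± 0.13, adjusted p = 0.00531), and lost its call without the genotype term (0.0832) or without either position 2 library (0.0789 and 0.0943). METK5 lost it in the same way (0.238 without the term; 0.367 and 0.178), after quantile normalization (0.786), without the filter (0.0739) and also without the position 3 library of 06C021V0046 (0.179). CCOAMT, a caffeoyl-CoA methyltransferase that uses that methyl donor in lignin synthesis, had 220.1 and 85.7 RPKM at position 3, against 29.7 and 19.7 at position 2 (2.46 ± 0.20, adjusted p = 0.000164). CCOAMT was the 1 riser among 6 phenylpropanoid genes, of which 1 fell and 4 were not called (median -0.49). Among the uncalled ones, OMT2.1 had a fitted difference of -0.82, against a step of 1.06 in tendrils (1 library a position). 4CL, which makes CoA esters of cinnamic acids, fell to 20.3 and 16.5 RPKM at position 3, against 37.8 and 28.5 at position 2 (-0.81 ± 0.24, adjusted p = 0.0231). The call of 4CL ended without the genotype term (0.246), without the filter on low values (0.0758), under both other scalings (0.0548 and 0.0776), and without the position 2 library of either line (0.0769 and 0.223) or the position 3 library of 06C021V0046 (0.179).

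**Figure D2:**
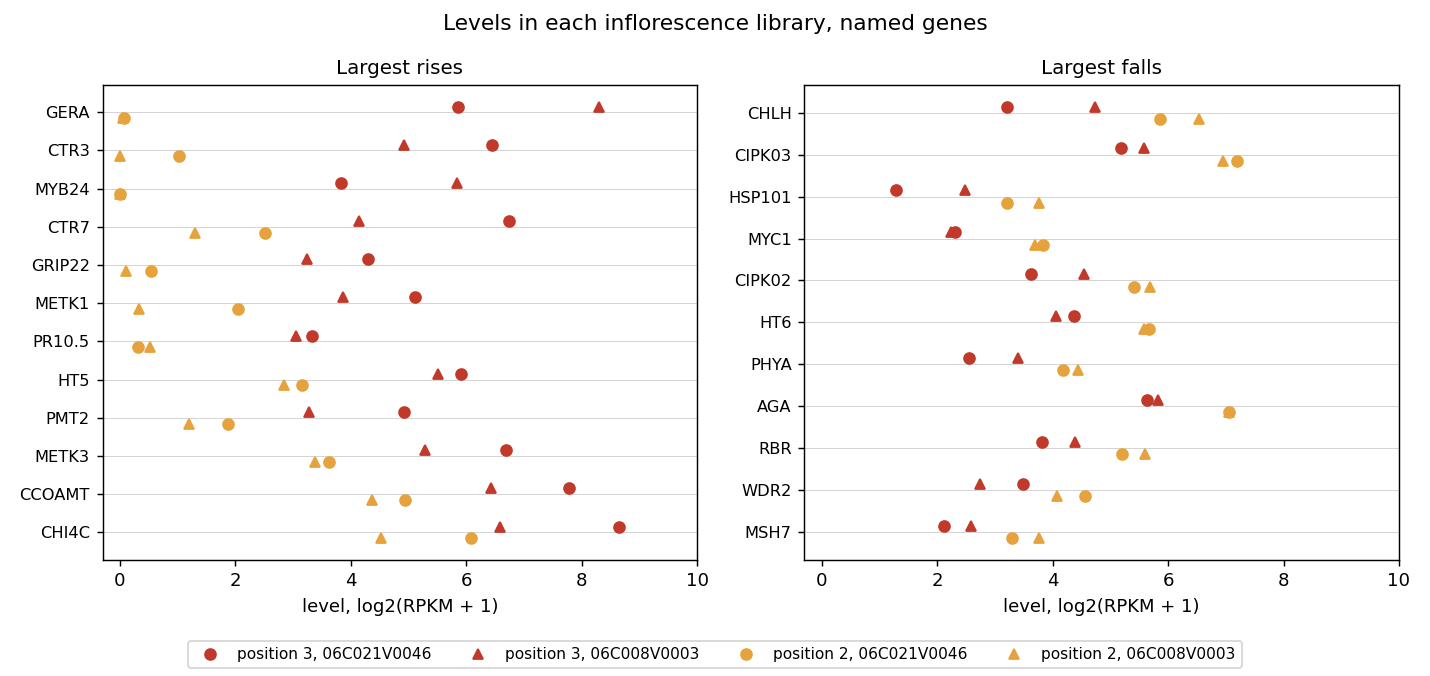
Levels on the log2(RPKM + 1) scale (x axis) of the 12 named genes with the largest rises (left) and 11 with the largest falls (right), 1 row per gene. Red symbols are position 3 and orange symbols position 2, with circles for 06C021V0046 and triangles for 06C008V0003, and in each row both red symbols lie on 1 side of both orange symbols.

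Of 18 tested sugar transporters and invertases, 5 were higher at position 3 and 3 lower, with a median of 0.33. With quantile normalization 8 were higher and 3 lower, and with median-ratio scaling 9 and 3. These 8 calls among 18 genes stand beside a share of 41.5% over all genes, which is near it, so they are read gene by gene. HT5, a hexose transporter of the plasma membrane, had 59.2 and 44.9 RPKM at position 3, against 7.92 and 6.16 at position 2 (2.72 ± 0.17, adjusted p = 4.89e-05). It was one of the most even rises between the lines, at 2.75 in 06C021V0046 and 2.68 in 06C008V0003. PMT2, a polyol and monosaccharide transporter, had 29.2 and 8.71 RPKM at position 3, against 2.68 and 1.29 at position 2 (2.56 ± 0.32, adjusted p = 0.000692). HT9 had 4.25 and 1.48 RPKM at position 3, against 0.224 and 0 at position 2, a pooled read ratio of 27.6 (95% counting interval 10.52 to 103). The near-identical HT10 had similar values (adjusted p = 0.0599 without the genotype term), and how reads shared by such copies had been counted was not given. SWEET15, a sugar exporter named here after its values were seen, had 291 and 104 RPKM at position 3, against 71.8 and 45.8 at position 2 (1.58 ± 0.23, adjusted p = 0.00125; 0.168 without the genotype term). HT6, a sugar importer of the vacuole membrane, fell to 19.8 and 15.7 RPKM at position 3, against 49.6 and 46.7 at position 2 (-1.40 ± 0.16, adjusted p = 0.000558). TMT2, of the same vacuolar family, and the plastid glucose transporter pGlT fell too, and both lost the call without the genotype term (0.0767 and 0.0658) and without the position 2 library of 06C008V0003 (0.139 and 0.0519). The call of TMT2 also ended without the position 2 or the position 3 library of 06C021V0046 (0.0844 and 0.0845).

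Of 21 tested chitinase and pathogenesis-related genes, 7 were higher at position 3 and 2 lower, beside 15.6% and 25.9% of all genes. The list's median was 0.54, at 0.63 in 06C021V0046 and 0.09 in 06C008V0003. Of its 9 calls, 2 stood without the genotype term and 3 in every fit without 1 library. CHI4C, a class IV chitinase, had 398 and 94.96 RPKM at position 3, against 66.9 and 22.0 at position 2 (2.31 ± 0.24, adjusted p = 0.000365; 0.113 without the genotype term). Both position 3 values of CHI4C lay above both position 2 values, and 06C021V0046 stood above 06C008V0003 at each position. PR10.5 had 9.02 and 7.26 RPKM at position 3, against 0.248 and 0.433 at position 2 (2.77 ± 0.22, adjusted p = 0.000187). The near-identical members of the PR10 group make the copy behind these values uncertain. The thaumatin-like gene TL1 had 12.6 and 3.72 RPKM at position 3, against 1.54 and 0.150 at position 2 (2.23 ± 0.40, adjusted p = 0.00297). Its call ended without the genotype term (0.204) and without the position 2 library of 06C021V0046 (0.0562). Several members of this list moved by at least 1 in 06C021V0046 only. CHI4D had 11.1 and 2.81 RPKM at position 3, against 1.98 and 3.52 at position 2, TL3 27.7 and 5.41, against 6.73 and 6.03, and PR10.2 368 and 154, against 104 and 145. None of these 3, named after their values were seen, was called (adjusted p = 0.383, 0.303 and 0.166). The PR genes and the heat stress genes had both been set as signs of sample stress, and they did not move together. In the heat stress list 2 of 3 genes were lower at position 3 and none was higher, against 7 higher and 2 lower in the list above. Sample stress itself was not tested. HSP101, a heat-induced chaperone, had 1.45 and 4.59 RPKM at position 3, against 8.25 and 12.6 at position 2 (-1.60 ± 0.29, adjusted p = 0.00313; 0.07 without the genotype term). BiP, a chaperone of the endoplasmic reticulum, was lower with all 4 libraries at or under 1.80 RPKM. The call of BiP ended without the genotype term (0.0689), without either position 2 library (0.102 and 0.113) and without the position 3 library of 06C021V0046 (0.0955).

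Differences among the water channels and wall genes named here ran from 0.73 for PIP2;1 to 3.45 for GRIP22. Of 10 aquaporins, 6 were higher at position 3 and none was lower (median 0.43), beside 15.6% and 25.9% of all genes. After quantile normalization, however, 1 aquaporin was higher and the median was 0.03. TIP2;1, a water channel of the vacuole membrane, had 1353 and 732 RPKM at position 3, against 518 and 291 at position 2 (1.35 ± 0.13, adjusted p = 0.00032). It had no overlap between positions, its call stood in each leave-one-out fit, and without the genotype term it ended (0.102). PIP2;1, a plasma membrane water channel, and TIP1;2 had differences of 0.73 ± 0.15 and 0.76 ± 0.13, and both lost the call without the genotype term (0.277 and 0.415), after quantile normalization (0.23 and 0.104) and without either position 2 library (0.096 and 0.107 for PIP2;1, 0.0527 and 0.0872 for TIP1;2). Of 9 cell wall and ripening-induced genes, 5 were higher and 1 lower (median 0.47). GRIP22 had 18.6 and 8.48 RPKM at position 3, against 0.447 and 0.0782 at position 2 (3.45 ± 0.27, adjusted p = 0.000153). GRIP28 had 211 and 110.4 RPKM at position 3, against 69.9 and 42.3 at position 2 (1.47 ± 0.14, adjusted p = 0.000309; 0.0864 without the genotype term). Both were separated between positions, and GRIP22 was close to 0 at position 2 in both lines. GRIP58 rose by 0.91 ± 0.16, and lost the call without the genotype term (0.0586) or without the position 2 library of 06C008V0003 (0.0701).

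Hormone genes were few in the naming table. GA20ox1, a gibberellin 20-oxidase that makes the precursors of active gibberellins, had 33.7 and 33.6 RPKM at position 3, against 13.8 and 6.01 at position 2 (1.77 ± 0.26, adjusted p = 0.00131). The lines reached the same level at position 3 although they differed by more than 2-fold at position 2. GA20ox1 was the 1 called gene of 4 tested gibberellin genes. VVGAI1, a DELLA repressor of gibberellin responses, had 1.53 and 0.991 RPKM at position 3, against 2.08 and 1.54 at position 2 (adjusted p = 0.275). The auxin-binding protein gene ABP1 and the ethylene receptor gene ETR1 were not called by limma (adjusted p = 0.92 and 0.991). Their levels ran from 6.50 to 13.5 RPKM at position 3 and from 7.45 to 11.7 RPKM at position 2.

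Further large named falls were single genes of several functions. CHLH, a subunit of the magnesium chelatase that starts chlorophyll synthesis, fell to 8.25 and 25.7 RPKM at position 3, against 56.9 and 91.3 at position 2 (-2.22 ± 0.28, adjusted p = 0.000751; 0.0509 without the genotype term). The photosystem II gene PSBP1, the 1 called gene of 3 tested photosynthesis genes, had 104 and 96.0 RPKM at position 3, against 167 and 184 at position 2 (-0.81 ± 0.23, adjusted p = 0.0222). CHLH and PSBP1 did not overlap between positions, but PSBP1 lost its call without the genotype term (0.152), without the filter (0.0808), after median-ratio scaling (0.0937), without the position 2 library of 06C008V0003 (0.292) and without the position 3 library of 06C021V0046 (0.135). The mismatch repair gene MSH7 had 3.36 and 4.99 RPKM at position 3, against 8.80 and 12.5 at position 2 (-1.17 ± 0.18, adjusted p = 0.00141; 0.0646 without the genotype term). RBR, the retinoblastoma-related repressor of the cell cycle, had 13.1 and 19.8 RPKM at position 3, against 35.9 and 47.7 at position 2 (-1.31 ± 0.15, adjusted p = 0.000488). For both genes the positions did not overlap, and both lines fell by similar amounts. PHYA, a red and far-red light receptor, had 4.88 and 9.56 RPKM at position 3, against 17.0 and 20.8 at position 2 (-1.33 ± 0.19, adjusted p = 0.00107; 0.0646 without the genotype term). AGA had 48.8 and 55.6 RPKM at position 3, against 132 in both lines at position 2 (-1.33 ± 0.17, adjusted p = 0.000829).

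Of 23 flavonoid and stilbene genes tested, 1, MYB24, was higher at position 3 and 5 were lower (median -0.18). Of all genes, 15.6% were higher and 25.9% lower (median -0.13), so the falls are read gene by gene. Median-ratio scaling turned the balance of the list to 2 higher and 1 lower. MYC1, a bHLH regulator of flavonoid synthesis outside that list, fell to 3.97 and 3.71 RPKM at position 3, against 13.3 and 11.99 at position 2 (-1.49 ± 0.21, adjusted p = 0.00115). The WD-repeat gene WDR2 fell to 10.25 and 5.73 RPKM, against 22.6 and 15.9 (-1.20 ± 0.19, adjusted p = 0.00171; 0.133 without the genotype term). MYBC2-L1, a MYB repressor of the pathway, had 25.6 and 23.9 RPKM at position 3, against 49.4 and 42.9 at position 2 (-0.87 ± 0.14, adjusted p = 0.00186). Both positions were tight for MYC1 and MYBC2-L1, whose lines lay close together. F3H, which makes dihydroflavonols, had 379 and 266 RPKM at position 3, against 663 and 403 at position 2 (-0.70 ± 0.17, adjusted p = 0.0101). Its call ended without the genotype term (0.338), after median-ratio scaling (0.0541), without either position 2 library (0.104 and 0.142) and without the position 3 library of 06C021V0046 (0.0851). The chalcone synthase genes CHS1 and CHS2 were called lower as well, and their near-identical sequences make the copy uncertain. Both lost the call without the genotype term (0.45 and 0.492), without the position 2 library of 06C021V0046 (0.0916 and 0.0582) or 06C008V0003 (0.325 and 0.425) and without the position 3 library of 06C021V0046 (0.262 and 0.186), without the filter on low values (0.11 and 0.108) and with a pseudocount of 5 (0.0544 and 0.0567). CHS1 lost it also after median-ratio scaling (0.138), and CHS2 also without that of 06C008V0003 (0.063).

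The CBL and CIPK genes, calcium sensors and the protein kinases they bind, held 3 higher and 4 lower members of 26 tested (median -0.08), a balance that became 5 and 5 with quantile normalization and 4 and 2 with median-ratio scaling. Of all genes, 15.6% were higher and 25.9% lower. CIPK03 fell to 35.4 and 47.1 RPKM at position 3, against 145 and 124 at position 2 (-1.69 ± 0.22, adjusted p = 0.000798). CIPK02 had 11.4 and 22.2 RPKM at position 3, against 41.8 and 50.4 at position 2 (-1.47 ± 0.25, adjusted p = 0.00224; 0.0504 without the genotype term). CIPK15 went the other way, with 6.69 and 3.85 RPKM at position 3, against 1.80 and 1.35 at position 2 (1.25 ± 0.30, adjusted p = 0.011). Its call ended without the genotype term (0.0756), without either position 2 library (0.0728 and 0.113) and without the position 3 library of 06C021V0046 (0.123). Among aroma genes, the lipoxygenase LOXA had 205 and 513.5 RPKM at position 3, against 625 and 781 at position 2 (-1.10 ± 0.27, adjusted p = 0.0117), a fall of 1.60 in 06C021V0046 and 0.60 in 06C008V0003. The call of LOXA ended without the genotype term (0.148), without the filter on low values (0.0644), without the position 2 library of either line (0.145 and 0.0668) and without the position 3 library of 06C021V0046 (0.0757). Of 3 alcohol dehydrogenases, ADH1 and ADH3 were called in opposite directions (0.54 ± 0.13 and -1.06 ± 0.21), and both calls ended without the genotype term (0.251 and 0.0572) and without either position 2 library (0.181 and 0.0911 for ADH1, 0.0563 and 0.0659 for ADH3), and that of ADH1 also after quantile normalization (0.0937). BCH1, a carotene hydroxylase and the 1 called gene of 4 tested carotenoid genes, rose by 1.19 ± 0.25, and lost the call without the genotype term (0.0531) or the position 2 library of 06C008V0003 (0.106).

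**Figure D3:**
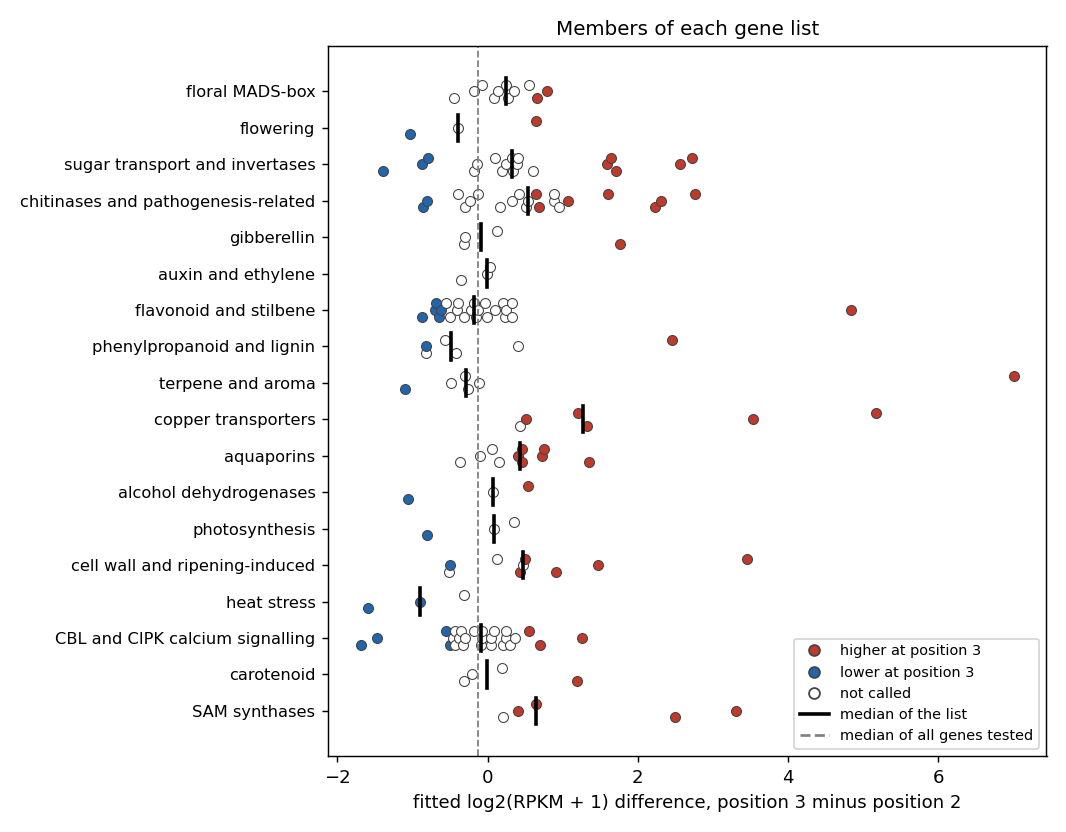
Fitted difference on the log2(RPKM + 1) scale between position 3 and position 2 (x axis) for each tested member of the lists with at least 3 tested members (y axis). Red points were higher at position 3, blue points lower and open points not called, short black bars are list medians, and the dashed line is the median of all genes tested (-0.13). Copper transporters have a median of 1.27 and the heat stress genes one of -0.90.

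Genes known only by a locus number included the largest changes of all. LOC100262981 had 209 and 1209 RPKM at position 3, against 0 and 0.0570 at position 2, where 1 read was counted (8.94 ± 0.58, adjusted p = 5.69e-05), and its pooled read ratio was 23204 (95% counting interval 4164 to 916560). LOC100250141 had 290.4 and 519 RPKM at position 3, against 0.929 and 0.866 at position 2 (7.68 ± 0.24, adjusted p = 2.64e-06). LOC100248881 had 638 and 580.3 RPKM at position 3, against 5.27 and 0.637 at position 2 (7.57 ± 0.34, adjusted p = 1.31e-05). All 3 were under 6 RPKM in both position 2 libraries and among the highly expressed genes at position 3. LOC100266476 reached 2755 and 355 RPKM at position 3, against 31.9 and 0.520 at position 2 (7.13 ± 0.42, adjusted p = 4.10e-05; 0.0513 without the genotype term). Of the falls, LOC100253371 had 1.60 and 2.82 RPKM at position 3, against 15.1 and 29.5 at position 2 (-2.81 ± 0.23, adjusted p = 0.000187). LOC100256193, LOC100244145 and LOC100263456 fell by 2.79, 2.69 and 2.66 on the log2 scale. They lost the call without the genotype term (0.0631, 0.0531 and 0.0634), and LOC100263456 also without the position 2 library of 06C021V0046 (0.0675) or 06C008V0003 (0.0578).

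The step to position 3 was then set against the step before it, in 1 model with the genotype term. The 2 steps share the position 2 libraries, so a high value there lowers the later step and raises the earlier one. A difference between the steps was called in 360 genes (1.91%), 208 with the larger value in the later step and 152 with the smaller. CTR3 had 0.197 and 0 RPKM at position 1, 1.05 and 0 at position 2, and 86.4 and 29.2 at position 3 (adjusted p = 0.00528 for the difference of the steps). GERA, GRIP22, PR10.5, MYB24, METK1, CCOAMT and HT5 also had a called difference with the larger value in the later step (adjusted p = 0.0137 to 0.0401). These genes and CTR3 had been picked for a large rise to position 3. That rise enters this contrast, so the choice favoured a larger later step. TL1 was called too (adjusted p = 0.0353), with 16.1 and 1.00 RPKM at position 1, 1.54 and 0.150 at position 2, and 12.6 and 3.72 at position 3, so that position 2 was its lowest point. SWEET15 showed the opposite order, with 3.58 and 0.456 RPKM at position 1, 71.8 and 45.8 at position 2, and 291 and 104 at position 3. Its later step was smaller by 2.91 ± 0.40 on the log2 scale (adjusted p = 0.0163). AG, GA20ox1, RBR and MYC1 had no called difference between the steps (adjusted p = 0.338, 0.313, 0.0626 and 0.948). Without the genotype term, or without the filter on low values, limma called no difference between the steps at all, with 1274 and 4660 genes at an unadjusted p under 0.05. The count without 1 library ran from 2 (without the position 2 library of 06C008V0003) to 2340 (without the position 3 library of 06C008V0003), and was 51 without the position 2 library of 06C021V0046, and 2170 and 741 without the position 1 library of 06C021V0046 and of 06C008V0003.

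**Figure D4:**
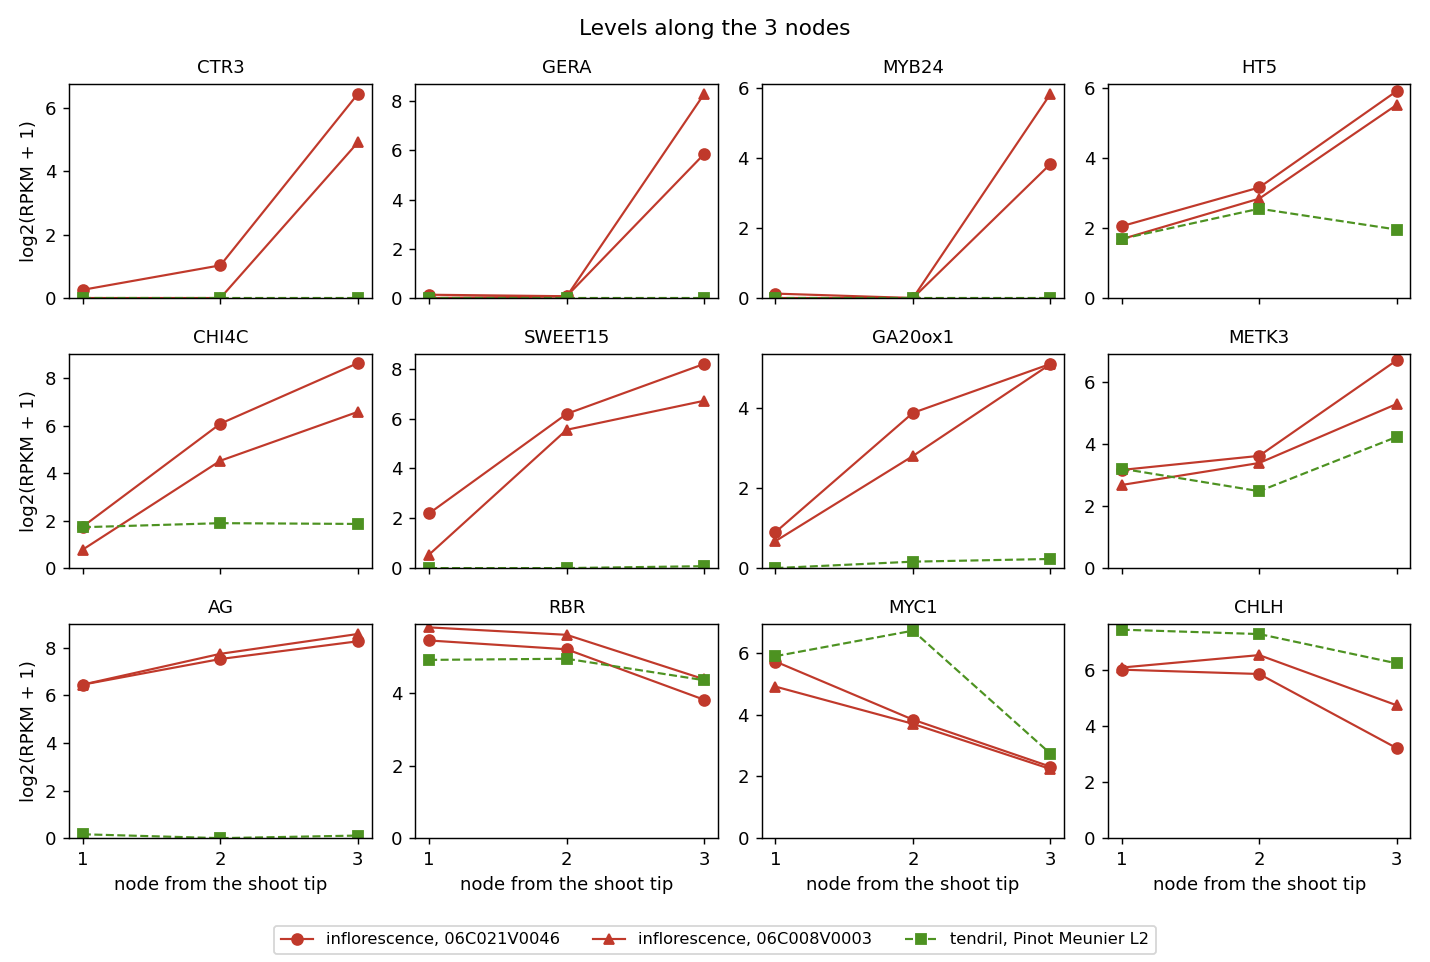
Levels on the log2(RPKM + 1) scale (y axis, each panel with its own range from 0) at nodes 1, 2 and 3 from the shoot tip (x axis) for 12 genes. Red circles and triangles are inflorescences of 06C021V0046 and 06C008V0003, and green squares are tendrils of Pinot Meunier L2 (1 library each). CTR3, GERA and MYB24 stay near 0 until node 3 in inflorescences, while SWEET15, CHI4C and GA20ox1 had already climbed at node 2.

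Tendrils of the same nodes gave a second organ in which to look at the step. They came from Pinot Meunier L2, with 1 library a node, so organ and genotype cannot be told apart and the tendril spread was assumed to equal that of inflorescences. Depth was uneven, at 9.92, 7.36 and 15.18 M reads on genes in the tendrils of positions 1, 2 and 3. The difference between the inflorescence step and the tendril step was called in 4135 genes (21.9%), 1940 with the larger value in inflorescences and 2195 with the smaller. Of the 725 genes at least 2-fold higher at position 3 in both picovine lines, 216 (29.8%) were also at least 2-fold higher in the tendril of position 3 than in that of position 2, against 2145 (11.4%) of all genes. Of the 1247 at least 2-fold lower in both lines, 716 (57.4%) were also lower by that much in tendrils, against 2795 (14.8%) of all genes. Read from the tendril side, 10.07% of the genes that were higher and 25.6% of those that were lower at tendril position 3 belonged to these 2 sets. Of the 725 genes, 193 (26.6%) were under 1 RPKM in every tendril and leaf library, whereas 11 of the 1247 (0.882%) and 621 of all tested genes (3.3%) were. The expression filter used inflorescence libraries only, so a gene absent from tendrils and leaves could enter through the position 3 libraries alone. These shares depend on that filter.

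Single genes showed both patterns. CTR3 and MYB24 had no read in any tendril library, and the inflorescence step exceeded the tendril step by 5.17 for CTR3 (adjusted p = 0.000573) and by 4.84 for MYB24 (adjusted p = 0.00446), in log2 units. HT5 rose in inflorescences, while the tendrils of positions 1, 2 and 3 had 2.23, 4.87 and 2.88 RPKM (difference of the steps 3.31, adjusted p = 0.000383). CCOAMT had 40.4, 27.2 and 94.7 RPKM in tendrils of positions 1, 2 and 3, and its steps in the organs did not differ past the threshold (0.70, adjusted p = 0.169). AP2 was lower at position 3 than at position 2 in tendrils too, with a difference of -1.32 and no called difference between the organs (adjusted p = 0.523). MYC1 had 58.2, 103.9 and 5.65 RPKM in tendrils of positions 1, 2 and 3, a larger drop from position 2 than in inflorescences (difference of the steps 2.49, adjusted p = 0.00243). Without the genotype term the organ difference was called in 72 genes, and without the position 2 library of 06C021V0046 or 06C008V0003 in 1313 or 1845.

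The size of the step was then set side by side in the picovine lines, without a test. Of the 1247 genes at least 2-fold lower in both lines, 973 (78.0%) had the larger step in 06C021V0046. Among the 725 at least 2-fold higher, 397 (54.8%) did, and over all 18839 genes tested 11413 (60.6%) did. In 06C021V0046 the step was at least 2-fold in 1235 genes upward and 2445 downward, and in 06C008V0003 in 1024 and 1512. The median step of all genes was -0.20 in 06C021V0046 and -0.06 in 06C008V0003, and its part in these counts was not tested. The median RPKM of tested genes was 11.01 and 13.06 at position 3, against 13.97 and 14.66 at position 2.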

How the data were processed

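Messenger RNA libraries had been made with an Illumina protocol and sequenced from 1 end, per the labels' protocols. The authors deposited an RPKM value for each of 25771 gene numbers per library, and named the unit in their file labels. Per the submitters' processing notes, Bowtie 0.12.7 and TopHat 1.2.0 had been used. No position is printed, since neither the build nor the annotation nor the read counter is given in the sources used here. Names come from the RefSeq table of assembly ASM3070453v1, in which 18647 gene numbers were found (72.4%).

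Reads were recovered from the deposited RPKM, whose values were whole multiples of the worth of 1 read for 24365 of 24365 genes (100%, tolerance 0.01 read). The smallest read numbers that suited were taken. The share of 100% is therefore a weak check, since genes read in few libraries, such as MYB24, can hardly fail it. The fold floor given for MYB24 rests on these read numbers. Intervals are exact at the 95% level, and with the floor of 3 reads they cover counting error only.

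The test was limma (version 3.58.1, two-sided, R version 4.3.3), applied to log2 values of RPKM plus a pseudocount of 1, over the 6 inflorescence libraries, with node position and genotype as terms, a variance trend, and Benjamini-Hochberg adjustment over 18839 genes with at least 1 RPKM in at least 2 of these libraries (2 residual and 6.77 prior degrees of freedom). The procedure was tested on simulated reads drawn without a difference between the lines, which cannot check the genotype term. The same libraries gave the contrast of the 2 inflorescence steps, and the 3 tendril libraries were added for the contrast of organs. The replicate number marks the genotype, so the genotype term is the pairing. Across genes the genotype difference correlated between positions 1 and 2 (0.638), 1 and 3 (0.558) and 2 and 3 (0.701). The 2 libraries of a position correlated across genes at 0.949 at position 3 and 0.965 at position 2. Nothing says that more than 1 culture or plant set stands behind a line, so p values measure only the spread between these samples.

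The members and lists were chosen with earlier results of these data known, and 4 of the 19 lists (CBL and CIPK, carotenoid, S-adenosylmethionine synthases, cytokinin phosphotransmitters) were added once the naming table had been seen. The cytokinin list had 2 tested genes, neither called. Genes were named by rule: the 12 largest rises and falls among called, named genes with at least 5 RPKM on average at the higher position and no overlap between positions, all floral MADS-box and flowering genes, the 3 largest changes of each other list, and 4 locus numbers each way with at least 20 RPKM. SWEET15, HT10, TMT2, pGlT, CTR1, CTR2, CTR6, METK2, METK5, CHI4D, TL3, PR10.2, CHS1 and CHS2 stand outside it and were named after their values were seen. Some genes the rule picked are not reported here. Alternatives tried were pseudocounts of 0.1 and 5, no filter, a filter over all 11 libraries, quantile and median-ratio scaling, other sets of libraries, no genotype term and leaving out each library.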

Additional observations from a re-analysis of the deposited data

Results flagged for a closer look

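The first kind of result singled out here is a called difference between the inflorescence step and the tendril step from position 2 to position 3. It held for 34 of the 77 tested genes picked by rule, 7 of them locus numbers, and for 21.9% of all genes tested. The rule mostly took genes with large inflorescence steps, which are part of this difference. A higher share than over all genes was therefore favoured by the choice. Organ and genotype cannot be told apart in it, and each tendril position had 1 library. Where the inflorescence step was the larger one, the difference on the log2(RPKM + 1) scale was 7.01 for GERA, 5.17 for CTR3, 4.84 for MYB24, 4.39 for METK1, 3.72 for VVGAI1, 3.50 for TL1, 3.36 for GRIP22, 3.31 for HT5, 3.07 for CTR7, 2.67 for PMT2, 2.49 for MYC1, 2.41 for PR10.5 and 2.34 for CHI4C. In the same direction it was 1.71 for HT9, 1.70 for GA20ox1, 1.496 for PSBP1, 1.38 for ADH3, 1.36 for 4CL and 1.12 for CTR8. Among locus numbers it was 9.20 for LOC100262981, 8.24 for LOC100248881, 7.88 for LOC100266476, 7.55 for LOC100250141, 3.62 for LOC100256193, 3.04 for LOC100244145 and 1.71 for LOC100253371.

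For VVGAI1, MYC1, ADH3, 4CL, PSBP1 and the last 3 locus numbers, a positive difference goes with a deeper drop in tendrils than in inflorescences. VVGAI1 had 38.6, 68.3 and 3.21 RPKM in tendrils of positions 1, 2 and 3. The inflorescence step was the smaller one, or went downward, for OMT2.1 (-1.88), CIPK02 (-1.82), ADH2 (-1.43), TIP2;1 (-1.37), METK4 (-1.04), GRIP28 (-1.02), AP1 (-0.95) and HT6 (-0.92). AP1 had 162, 119.5 and 298 RPKM in tendrils of positions 1, 2 and 3.

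The second kind is a named gene whose picovine lines moved in opposite directions from position 2 to position 3, a difference that was not tested. The step in 06C021V0046 was -0.45 for VFUL-L, -0.25 for AP3, -0.18 for ADH2, -0.17 for ABP1, -0.17 for ETR1 and -0.0085 for TM6, and it was positive in 06C008V0003 for all 6.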

How the results depend on the processing

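Genotype was the pairing term, and without this replicate block 1205 genes were called at the step from position 2 to position 3, all among the 7822. Without it, 32 of the 55 called genes named by rule lost the call. Leaving out 1 library gave 2741 to 8738 calls, lowest without the position 2 library of 06C021V0046, with 3065 without that of 06C008V0003 and 4758 without the position 3 library of 06C021V0046. Every such fit kept 729 rises and 1348 falls. With the other pseudocounts, filters, scalings and sets of libraries, the count was 6510 to 8734. The genes at least 2-fold in both lines numbered 832 with a pseudocount of 5, against 1972. The difference between the steps was called in 360 genes, in 0 without the block or without the filter, in 167 and 101 with pseudocounts of 0.1 and 5, in 96 after median-ratio scaling, and in 2 to 2340 without 1 library (limma, with 1274 and 4660 genes at an unadjusted p under 0.05 for the counts of 0). The organ difference was called in 72 genes without the block, in 855 without the filter and in 1313 to 5386 without 1 inflorescence library.

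No called gene named by rule changed direction in any setting tried. Among uncalled ones, the difference changed sign to 0.10 for AP3 and 0.16 for ETR1 after median-ratio scaling, and to -0.15 for MADS2, -0.24 for MADS9, -0.075 for TM6 and 0.25 for ETR1 after quantile normalization. ETR1 reached 0.0016 with a pseudocount of 5. Leaving out 1 library in turn gave ranges that crossed 0 for ABP1 (-0.20 to 0.26), ADH2 (-0.18 to 0.31), AP3 (-0.30 to 0.15), ETR1 (-0.13 to 0.13), MADS2 (-0.0095 to 0.29), MADS3 (-0.89 to 0.0059), MADS8 (-0.13 to 0.31), PSBP2 (-0.15 to 0.33), TM6 (-0.10 to 0.58) and VFUL-L (-0.44 to 0.087). The causes were not tested. With 2 libraries a position, 23 of the 55 called genes kept the call in every setting.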
